A study of Mus musculus with 32 samples.

Results

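In single cells from the median eminence (ME) of mice, 210 of 5982 were Gfap-led cells, or 3.51% (exact Clopper-Pearson 95% interval 3.06 to 4.01%). They were chosen by their own counts: a cell was kept when the unique molecular identifiers (UMIs) of Gfap, Tgfb2, Rspo3 and Apobec2 summed to at least 4 and when genes of other cells stayed below set limits, with Col25a1, Scn7a and Adm under 3 UMIs, Agt under 5, Dcn under 5, Ccdc153 and Tmem212 under 5, Mal, Ermn and Opalin under 20, and Snap25, Syt1, Stmn2 and Stmn3 under 20. The levels of these genes are therefore a description of the choice. Because the cells were also clustered on the same counts, every other gene below is given as a description too, and no test was run.

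The study isolated single cells from the ME, the strip of hypothalamus at the base of the third ventricle, of young C57B/L6 mice, male by the general statement of the study's methods. One group of 5 mice was fasted overnight and the other 5 were fasted overnight and then refed normal chow for 1 h; tissue was pooled within each group, and each pool was divided over 2 libraries, giving 4 libraries listed as 32 sample records. Cells had been sorted as living, nucleated single cells, with no gate for a cell type. The barcodes carry a suffix from 1 to 4, and neither the sample labels nor the matrix say which library that number stands for, so fasted and refed cells could not be told apart and all values pool both. The 4 barcode numbers are shown as 4 parts of 1 sample, and intervals, which are at the 95% level, cover counting error only.

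Tanycytes are elongated glial cells that line the floor and lower walls of the third ventricle and send a process into the hypothalamus. They carry Rax, a homeobox factor needed for their identity, and are grouped by position into beta tanycytes of the ventricle floor and alpha tanycytes of the wall. Ependymocytes, the multiciliated cells higher on the wall, carry Foxj1, the master factor of motile cilia. Gfap encodes an intermediate filament best known from astrocytes and also found in part of the tanycytes. Tgfb2 is a ligand of the TGF-beta family, Rspo3 an R-spondin that strengthens Wnt signalling, and Apobec2 a member of the APOBEC family of deaminase-like proteins.

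Before the limits, 297 cells had at least 4 UMIs of the 4 genes. The limits removed 87 of them, of which 42 were past the limit of Agt, an astrocyte gene in this tissue, and 38 past that of Ccdc153 and Tmem212, genes of ciliated cells. Just inside the threshold lay 38 members that had exactly 4 UMIs, and just outside it 56 cells that met every limit and had exactly 3. Their Tgfb2 level was 459 and 325 counts per 1000000 UMIs (CPM), their Gfap level 107 and 69.1 CPM and their Rax level 359 and 406 CPM.

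Members were set beside 4 groups of other cells, named from marker lists of their clusters: 216 beta-2-like tanycytes (cells of tanycyte clusters with at least 3 UMIs of Col25a1, Scn7a and Adm), 1019 other tanycyte-like cells, 200 ependymocyte-like and 1421 astrocyte-like cells. Members came from every barcode number. They numbered 62 of 1642 cells (3.78%) in number 1, 44 of 1493 (2.95%) in number 2, 42 of 1359 (3.09%) in number 3 and 62 of 1488 (4.17%) in number 4. A member held a median of 4182 UMIs (range 1783 to 10642), against medians of 4006 in other tanycyte-like, 5141.5 in beta-2-like, 4857 in ependymocyte-like and 2665 in astrocyte-like cells. A doublet caller marked 1 member, and 3 members carried a barcode sequence that also occurred under another number, none of them shared with a second member.

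The gene that names the cells was not seen in most of them. Gfap was seen in 99 of 210 members (47.1%), whereas Tgfb2 was seen in 172 (81.9%), Rspo3 in 136 (64.8%) and Apobec2 in 73 (34.8%). Tgfb2 had more UMIs than each of the other rule genes in 92 members, Gfap in 54, Rspo3 in 41 and Apobec2 in 6, with a tie for the highest in 17. Only 20 members had all 4 genes, while 60 had 3 of them, 90 had 2 and 40 had 1. Gfap reached 38 UMIs in 1 member, and Tgfb2 reached 11.

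Gfap (ENSMUSG00000020932; mm10 chromosome 11, 102887336 to 102900912, minus strand) stood at 733 CPM in members (exact Poisson interval 679 to 790), with 702, 737, 405 and 988 CPM in barcode numbers 1 to 4. It stood at 17.8 CPM in beta-2-like tanycytes, 110 in other tanycyte-like cells, 44.6 in ependymocyte-like cells and 146 in astrocyte-like cells. The lowest barcode number of the members, number 3, lay above the highest of every comparison group, 198 CPM in astrocyte-like cells. The rule counts Gfap, so this gap and the shares that follow are in part set by the choice. When each cell was thinned to 2000 UMIs, 38.6% of members kept a Gfap UMI against 2.79% of beta-2-like, 6.01% of other tanycyte-like, 9.50% of ependymocyte-like and 13.2% of astrocyte-like cells.

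Gfap was also held by astrocytes. The cluster of astrocyte-like cells that it led held 565 CPM of Gfap. To show the regulatory sequence of the gene that names the cells, the 250 bases upstream of its start in RefSeq (GRCm38.p6, chr11:102897201-102897450, minus strand) are printed 5′ to 3′, with the match to the RBPJ core motif TGGGAA in capitals. RBPJ is the DNA-binding factor of Notch signalling, and the match lies on the opposite strand, 115 to 110 bases before the start.
Gfap: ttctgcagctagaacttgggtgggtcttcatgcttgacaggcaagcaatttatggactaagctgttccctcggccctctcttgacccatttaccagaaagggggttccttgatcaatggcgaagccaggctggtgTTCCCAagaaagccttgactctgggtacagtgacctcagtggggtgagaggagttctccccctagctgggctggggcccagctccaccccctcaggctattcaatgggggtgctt
Of 32851 promoters of this length, 21.6% held that motif on either strand, so a match is common. Of the other genes of the rule and markers listed in RefSeq, Mlc1 held it, and Tgfb2, Apobec2 and Cd59a held no match to it. The STAT (TTCNNNGAA), SOX (AACAAT), NFI (TTGGCA) and RFX (GTTGCC) motifs were searched on both strands as well, and none was found in these 5 promoters; they occurred in 7.02%, 9.42%, 12.3% and 10.4% of all promoters.

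Tgfb2 (ENSMUSG00000039239; chromosome 1, 186622792 to 186705989, minus strand) stood at 681 CPM (629 to 737) and at 638, 674, 603 and 786 CPM by barcode number. Every comparison group lay at 39.5 to 72.5 CPM. Rspo3 (ENSMUSG00000019880; chromosome 10, 29452416 to 29535867, minus strand) stood at 423 CPM (382 to 467), with 362, 274, 603 and 466 CPM by number, against 51.0 CPM in other tanycyte-like, 27.2 in astrocyte-like, 4.45 in beta-2-like and 4.05 in ependymocyte-like cells. Apobec2 (ENSMUSG00000040694; chromosome 17, 48419231 to 48432930, minus strand) stood at 117 CPM (96.3 to 142) in members, 74.0 in ependymocyte-like and 17.2 in other tanycyte-like cells, and at 0.890 and 0.254 CPM in beta-2-like and astrocyte-like cells. Its member values by number, 147, 121, 69.3 and 118 CPM, overlapped those of ependymocyte-like cells, 95.3, 84.7, 66.1 and 62.1 CPM, whereas those of Tgfb2 and Rspo3 overlapped no comparison group. The rule counts these genes and members were taken out of every comparison group, so such gaps are in part set by the choice. Of the members' Rspo3 UMIs, 20.9% lay in 11 cells described below as subgroup D, 7 of which carried barcode number 3.

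The 2 markers outside the rule were Cd59a, an inhibitor of the complement attack complex, and Mlc1, a membrane protein of glial endfeet. Cd59a stood at 343 CPM (307 to 383) in members and at 5.59 to 50.3 CPM in the 4 comparison groups. Mlc1 stood at 1770 CPM (1685 to 1857) in members against 515 CPM in beta-2-like, 935 in other tanycyte-like, 973 in ependymocyte-like and 1000 in astrocyte-like cells, so it was present in all 5 groups and highest in members, past the threshold given below against beta-2-like cells alone.

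**Figure D1:**
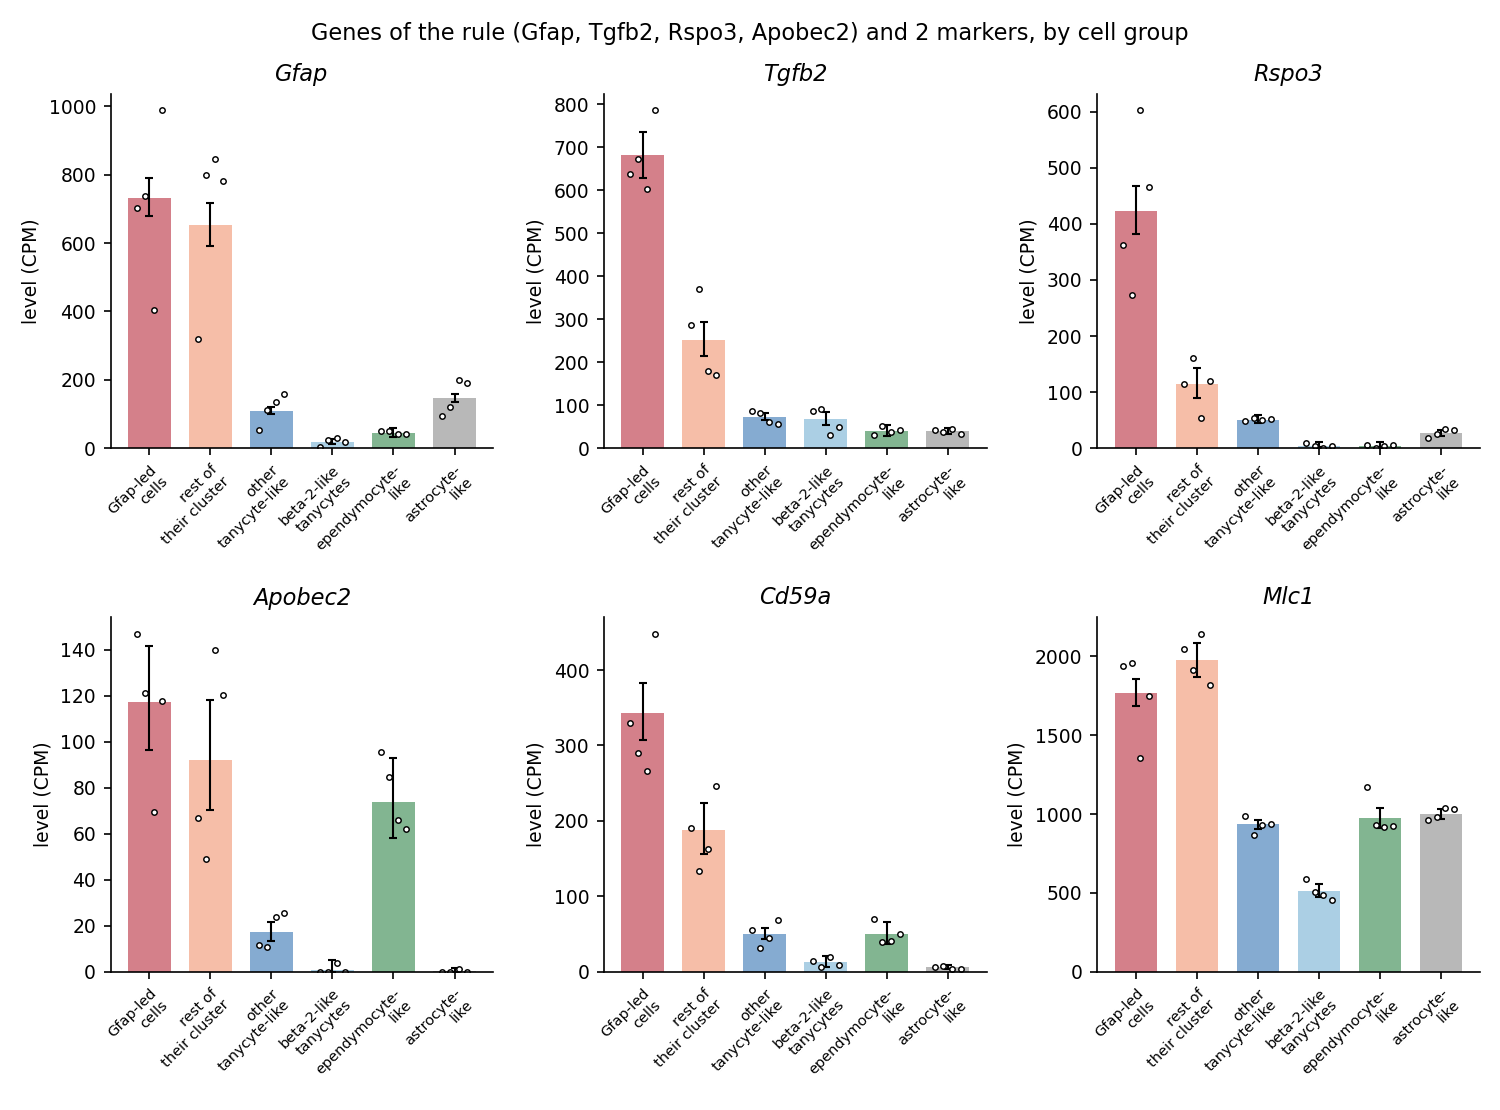
Level in CPM (vertical axis of each panel, starting at 0) of the 4 rule genes and 2 markers in the Gfap-led cells, the rest of their cluster and 4 comparison groups; bars are pooled levels, black lines exact 95% Poisson intervals and open circles the 4 barcode numbers. Gfap reached 733 CPM in Gfap-led cells and 652 CPM in the rest of their cluster, while Apobec2 was also held by ependymocyte-like cells at 74.0 CPM.

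Clustering of all cells gave 25 clusters, and 173 of the members fell in 1 of them, a cluster of 320 cells led by Gfap, Tgfb2, Apobec2, Cd59a and Rspo3. Its other 147 cells were left out of the members because 101 had fewer than 4 UMIs of the rule genes, 32 were past the Ccdc153 and Tmem212 limit and 14 past the Agt limit. Those 147 cells held Gfap at 652 CPM, Mlc1 at 1976 CPM, Tgfb2 at 251 CPM and Rspo3 at 114 CPM, so they were close to the members in Gfap and further from them in Tgfb2 and Rspo3. Since 101 of them were left out for few UMIs of the rule genes, that distance is in part set by the choice. The 37 members outside this cluster lay in a Dio3-led cluster (12), a Ccn3-led cluster (11), tanycyte-like clusters led by Frzb (5) and Kctd14 (5), and singly in 4 others.

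The 147 remaining cells made up part of the 1019 other tanycyte-like cells to which the members were compared. In the 872 tanycyte-like cells of other clusters, Gfap stood at 7.4 CPM, Tgfb2 at 38.7, Rspo3 at 39.0, Apobec2 at 3.13 and Cd59a at 24.2 CPM. Of the 459 UMIs of Gfap in other tanycyte-like cells, 433 lay in the rest of the members' cluster.

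The name of these cells places them between tanycytes and ependymocytes. In summed marker levels they lay between these groups for the tanycyte list, and level with other tanycyte-like cells for the ependymocyte list. The same lists had named the clusters of the comparison groups. Each group's high level on its own list therefore follows from the naming, and the place of the members between them is a description. Summed over 8 tanycyte markers (among them Rax, Gpr50, Col23a1, Lhx2, Dio2, Crym and Ppp1r1b), the members stood at 1749 CPM (1665 to 1836), below the 2674 and 2825 CPM of other tanycyte-like and beta-2-like cells and above the 260 CPM of ependymocyte-like cells. Summed over the 5 ependymocyte markers that the rule did not use (Foxj1, Dynlrb2, Fam183b, Mia and Rarres2), they stood at 3150 CPM (3036 to 3266), next to the 3135 CPM of other tanycyte-like cells and far below the 9492 CPM of ependymocyte-like cells. The other tanycyte-like cells include the 147 remaining cells of the members' cluster, which were higher in this sum and raise that group's level. Most of this sum was Rarres2, which encodes chemerin, at 1072 CPM in members, 600.2 in other tanycyte-like and 3899 in ependymocyte-like cells, and Mia, a secreted protein, at 984, 1399 and 2312 CPM. By the marker scores the cluster with most members took the tanycyte name, with 0.557 for tanycytes against 0.315 for ependymocytes. The members are called Gfap-led cells here after the rule and given no other name.

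At 2000 UMIs a cell, 182 of 207 members (87.9%, 82.69 to 92.03%) had a UMI of both lists. This did not set them apart, since 93.6% of other tanycyte-like and 97.2% of beta-2-like cells also had both, against 37.0% of ependymocyte-like cells. The rest of the cluster, which the Ccdc153 and Tmem212 limit had kept out in part, held the 5 ependymocyte markers at 4770 CPM, more than the members.

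**Figure D2:**
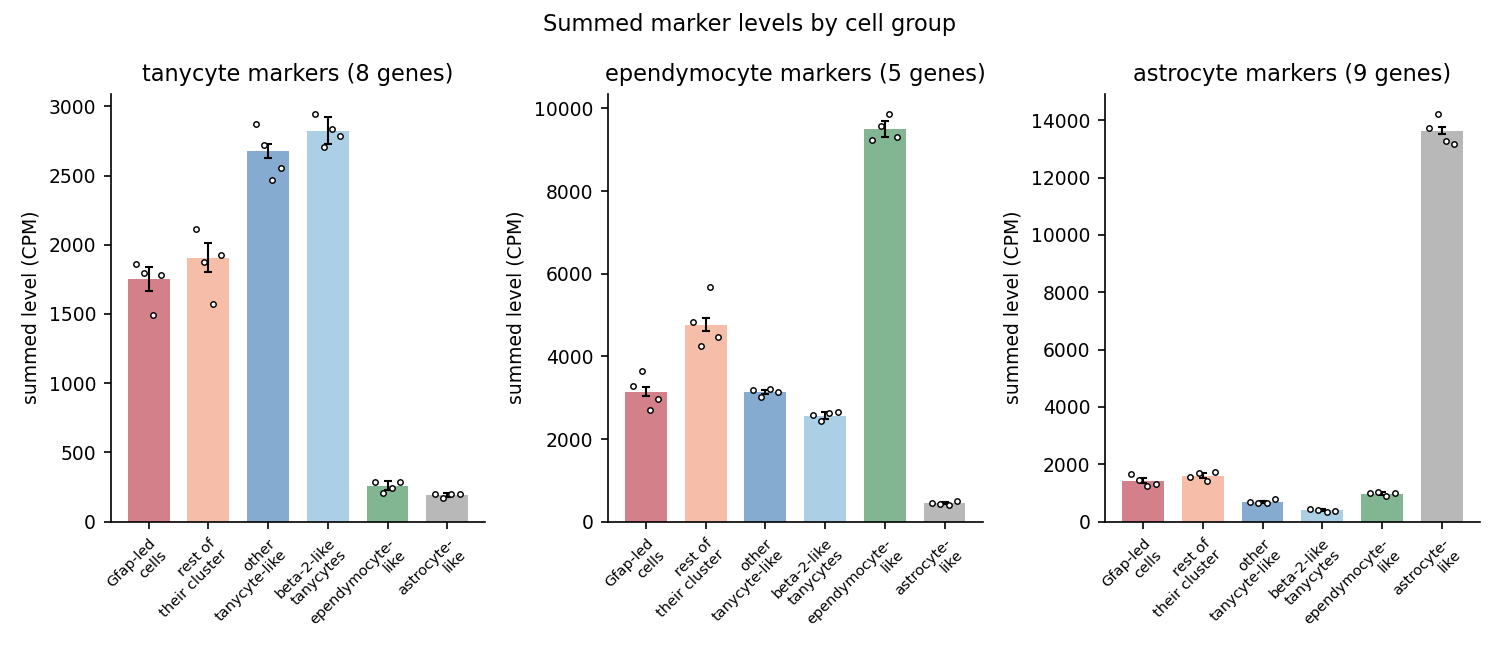
Summed level in CPM (vertical axes, starting at 0) of 3 marker lists, without Ccdc153, Tmem212 and Agt, which the rule limits; bars are pooled levels, black lines exact 95% Poisson intervals and open circles the 4 barcode numbers. Gfap-led cells sat at 1749 CPM of tanycyte markers, below both tanycyte groups, and at 3150 CPM of ependymocyte markers, level with other tanycyte-like cells. That group includes the rest of the members' cluster, which was higher in ependymocyte markers. The lists had also named the clusters of the comparison groups, so each group's high level on its own list follows from the naming.

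Some tanycyte genes stood near the level of tanycytes and others below it. Gpr50, an orphan receptor of tanycytes, stood at 235 CPM against 167 and 189 CPM in the 2 tanycyte groups, and Lhx2 at 130 CPM against 155 and 151 CPM. Rax stood at 239 CPM (209 to 273), and 47.6% of members had a UMI of it, whereas beta-2-like and other tanycyte-like cells held 769 and 731 CPM with a UMI in 92.1% and 80.0%. Its members' values by number, 308, 237, 149 and 231 CPM, all lay below those of both tanycyte groups, the lowest of which was 695 CPM. Dio2, the deiodinase that activates thyroid hormone and is known from tanycytes, had 3 UMIs in all members (3.23 CPM), at the limit of 3 counts below which a level is not told from 0, and 37.4 CPM in beta-2-like cells.

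Genes of motile cilia stood well below ependymocyte-like cells. The rule itself had removed 38 cells for Ccdc153 and Tmem212, so this level is in part set by the choice. Foxj1 stood at 65.7 CPM in members, 67 in other tanycyte-like, 32.9 in beta-2-like and 353 in ependymocyte-like cells. Rsph1, of the ciliary radial spoke, stood at 197, 242, 118 and 1225 CPM in the same order. Of 18 cilium genes, 17 could be compared with ependymocyte-like cells and 16 were lower in members by the rule given next, with a median log2 ratio of -2.10. Against other tanycyte-like cells 0 of 16 differed (median -0.17), and against beta-2-like tanycytes 2 of 12 were higher, Rsph4a and Ak7 (median 0.52). Of the 38 removed cells, 32 lay in the members' cluster and were counted among the other tanycyte-like cells. The comparison with that group is therefore in part set by the choice as well.

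A gene was counted as higher or lower when the pooled log2 ratio of CPM, with 10 CPM added to both levels, was at least 1 or at most -1 and had the same sign in all 4 barcode numbers; genes with at least 50 UMIs in both groups together were compared. Against beta-2-like tanycytes, 298 of 5886 genes were higher (5.06%) and 200 lower (3.4%). Against other tanycyte-like cells, 130 of 9031 were higher (1.44%) and 66 lower (0.731%), the fewest of the 4 comparisons; with the rest of the members' cluster taken out of that group, 193 were higher and 81 lower. Against ependymocyte-like cells, 318 of 5850 were higher (5.44%) and 679 lower (11.6%), and against astrocyte-like cells 888 of 8762 were higher (10.1%) and 768 lower (8.77%). The median log2 ratio over all compared genes was -0.08, -0.03, 0.04 and 0.06 in this order. The percentages are the background for the counts of listed genes below.

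Over 11016 genes, the members' log2 levels correlated most with the rest of their own cluster (Pearson r = 0.964 over genes), then with the Kctd14-led (0.946) and Frzb-led (0.940) tanycyte-like clusters, the Dio3-led cluster (0.931) and ependymocyte-like cells (0.875). The astrocyte-like cluster led by Gfap reached 0.857, and the other astrocyte-like clusters 0.796 and 0.793. Genes are not independent replicates, all points share the library, and depth differed between groups, so these values are a description.

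In all, 16 genes were higher in members than in each of the 4 groups, among them Cd59a, Cox6a2, Efemp1, Emp2, Fgl2, Fmo1, Gfap, Gpx1, Gpx3, Necab2, Pex5l, Pgrmc1, Rspo3, Tgfb2 and Tmeff2. Of these, Gfap, Rspo3 and Tgfb2 are genes of the rule, so their place here follows from the choice of cells. No gene was lower than in all 4. Several of the 16 genes encode enzymes and small binding proteins. Gpx3, a secreted glutathione peroxidase, stood at 320 CPM (284 to 358) against 41.8 to 82.4 CPM in the 4 groups, and Gpx1, its intracellular relative, at 826 CPM (768 to 886) against 316 CPM in beta-2-like, 249 in ependymocyte-like, 219 in other tanycyte-like and 44.2 in astrocyte-like cells. Pgrmc1, a haem-binding membrane protein, stood at 1700 CPM (1617 to 1786), with 1544, 1610, 1301 and 2196 CPM by number, against 632 CPM in other tanycyte-like and 169 to 335 CPM in the other groups. Necab2, a neuronal calcium-binding protein, stood at 322 CPM against 112 CPM in other tanycyte-like and 7.88 to 24.3 CPM in the rest. Cox6a2, a subunit of cytochrome c oxidase known from muscle, stood at 213 CPM against 6.08 to 83.8 CPM. It was not particular to the members, since it was also among the leading genes of the Dio3-led cluster. The 207 cells of that cluster outside the members took no cell type name and were in none of the 4 groups. The best list of the whole cluster was the tanycyte list, with a score of 0.2995, just under the 0.3 needed for a name. The count of 16 genes therefore does not take these cells into account.

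Smaller differences were seen for Fmo1, a flavin monooxygenase, at 117 CPM against 34.7 to 49.8 CPM, and for Emp2, a membrane protein, at 217 CPM against 44.5 to 101 CPM. Among the 10 genes with the least favourable ratios, Mt2, a metallothionein, stood at 1538 CPM in members against 2116 to 3905 CPM, with log2 ratios of -0.46 to -1.34. Gstt1 stood at 121 CPM against 158 to 282 CPM, Tsc22d3, a glucocorticoid-induced gene, at 287 CPM against 359 to 701 CPM and Sox9, a glial transcription factor, at 250 CPM against 288 to 423 CPM. Each of these 4 genes was below -1 against at most 1 group; without subgroup D, which held 26.6% of the members' Tsc22d3 UMIs, Tsc22d3 was below -1 against 3 groups, with log2 ratios of -1.27 (beta-2-like), -1.19 (other tanycyte-like), -0.65 (ependymocyte-like) and -1.60 (astrocyte-like).

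**Figure D3:**
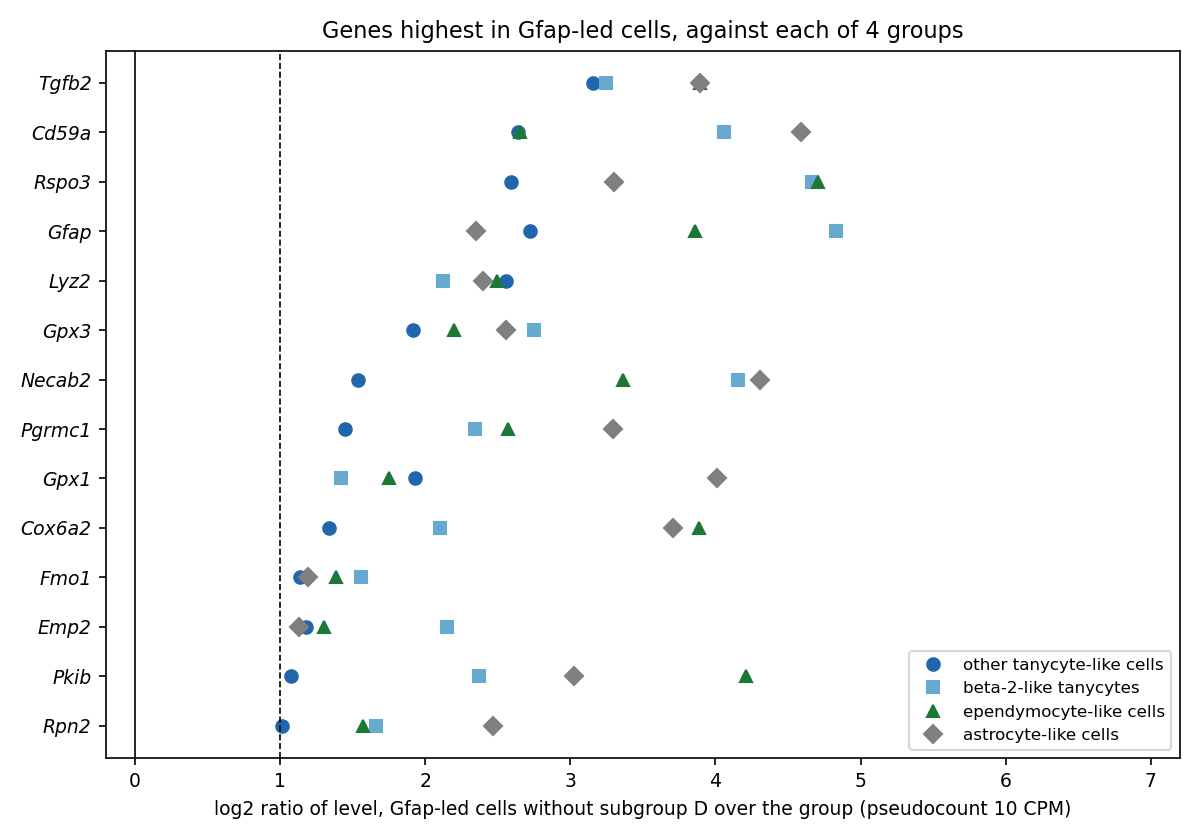
Log2 ratio of level (horizontal axis, 10 CPM added to both levels) of genes highest in Gfap-led cells, with subgroup D left out, over each of 4 cell groups (symbols); the dashed line marks a log2 ratio of 1. Tgfb2, which like Gfap and Rspo3 is a gene of the rule, lay at 3.16 or more against every group. For most of the genes, other tanycyte-like cells gave the smallest ratio.

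When the members were clustered alone they fell into 4 subgroups of 98, 56, 45 and 11 cells, named A to D by size. Since these were cut from the same counts, their genes are a description. Subgroup D stood apart from the rest. Its 11 cells, of which 0, 1, 7 and 3 came from barcode numbers 1 to 4, were the 11 members found in the Ccn3-led cluster. They had no UMI of Gfap, Tgfb2 or Apobec2 and entered through Rspo3 alone, at 1418 CPM. They held Mgp, a matrix protein that inhibits calcification, at 13940 CPM, Fxyd5 at 3563 CPM and Ccn3 at 1885 CPM, while Mgp stood at 18.9 to 20.8 CPM in the other 3 subgroups.

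The cells of subgroup D carried little of what the other members shared. Their level of Apoe, a lipid carrier of glia, was 1557 CPM against 22147 to 28187 CPM in subgroups A to C, and that of Mlc1 was 34.6 CPM against 1297 to 2260 CPM. They had 6 UMIs of the 8 tanycyte markers in all (104 CPM), and 9 of the 5 ependymocyte markers (156 CPM). Immediate early genes, a set of 10 that includes Fos and Junb and can be induced by cell handling, summed to 4012 CPM in subgroup D and 390 to 588 CPM in A to C. Their median doublet score was 0.0780 against 0.0188 to 0.0273 in the other subgroups, and 0 were marked as doublets. Lists of other cells were higher as well, with 5 endothelial markers at 1245 CPM against 116 to 159 CPM, of which Itm2a made up all 72 UMIs, and 5 markers of vascular and leptomeningeal cells at 432 CPM against 24.1 to 49.8 CPM. The part of these cells and of handling in the result was not tested.

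Results are therefore given without subgroup D as well. The counts then became 301 and 214 against beta-2-like tanycytes, 115 and 81 against other tanycyte-like cells, 312 and 658 against ependymocyte-like cells and 886 and 792 against astrocyte-like cells, higher and lower respectively. The genes higher than all 4 groups again numbered 16, of which 14 were shared; Efemp1 and Tmeff2, which subgroup D held at 986 and 1003 CPM and the other subgroups at 7.09 to 16.5 CPM, dropped out, and Pkib and Rpn2 came in. Lower than in all 4 groups was then Dmd, which encodes dystrophin and stood at 12.9 CPM in all members against 33.5 to 137 CPM. Mgp, Fxyd5 and Ccn3, which led the ranking of all members, rested on subgroup D, which held 97.9 to 99.1% of their UMIs. Without subgroup D the tanycyte markers stood at 1858 CPM and the 5 ependymocyte markers at 3348 CPM.

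Subgroup A held the 12 wall tanycyte genes at 2151 CPM, against 2002 CPM in C and 1059 CPM in B. It held Tgfb2 at 874 CPM, Cd59a at 527, Crym at 574, Gpx3 at 513 and Pgrmc1 at 2515 CPM. Crym encodes a thyroid hormone-binding protein. Gfap stood at 303 CPM in it. Mef2c, a transcription factor known from muscle and neurons, stood at 395 CPM with a UMI in 72 of the 98 cells, and Pkib, an inhibitor of protein kinase A, at 369 CPM. Both genes were also held by the Dio3-led cluster, in which 12 members of this subgroup lay, at 1016 and 315 CPM. Slc17a8, a vesicular glutamate transporter, had 29 UMIs in subgroup A and 0 in the other members.

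Lyz2, a lysozyme of myeloid cells that ranked among the 15 highest genes, did not mark the subgroup broadly. Of its 97 UMIs in subgroup A, 72 came from 1 cell, and 15 of 98 cells had any. The Dio3-led cluster held Lyz2 at 265.9 CPM with a UMI in 47 of 207 cells. The 4 macrophage markers summed to 3 UMIs over all members.

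Subgroup B held most of the Gfap. It stood at 2035 CPM, with a UMI in 54 of 56 cells, against 303 and 304 CPM in subgroups A and C. Clu, a secreted chaperone of astrocytes and ependymocytes, stood at 3489 CPM against 572 and 719 CPM, and Cd24a, a surface protein of ciliated cells, at 420 CPM against 40.2 and 121 CPM. Crym stood at 37.4 CPM in it against 574 and 338 CPM, and Rax at 78.9 CPM against 317 and 333 CPM. The 5 ependymocyte markers outside the rule stood at 4461 CPM in subgroup B, 3878 in C and 2456 in A, and the 9 astrocyte markers outside the rule at 1990, 1370 and 1201 CPM. Tgfb2 was lower in B (498 CPM) than in A (874 CPM) and C (690 CPM), and Rspo3 lowest, at 108 CPM. Gfap, Tgfb2 and Rspo3 count toward 1 sum in the rule, so cells low in one of them had to be higher in another to be kept.

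Subgroup C held Penk, which encodes an enkephalin precursor and is known from tanycytes of the ventricle wall, at 280 CPM in 18 of 45 cells, against 12.5 and 37.8 CPM in B and A. Frzb, a Wnt antagonist, stood at 352 CPM. The genes that ranked first in it, Ppp1r17 and Vgf, came from 1 cell each, with 36 and 44 UMIs. Meg3, a long non-coding RNA abundant in neurons, stood at 1833 CPM with 126 of 380 UMIs in 1 cell. The 6 neuron markers summed to 463 CPM in subgroup C and to 133 and 196 CPM in B and A. One cell of subgroup C lay in a neuron cluster and another, the 1 member marked as a doublet, in a cluster of differentiating oligodendrocyte precursors. The part of neuronal RNA in these values was not tested.

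**Figure D4:**
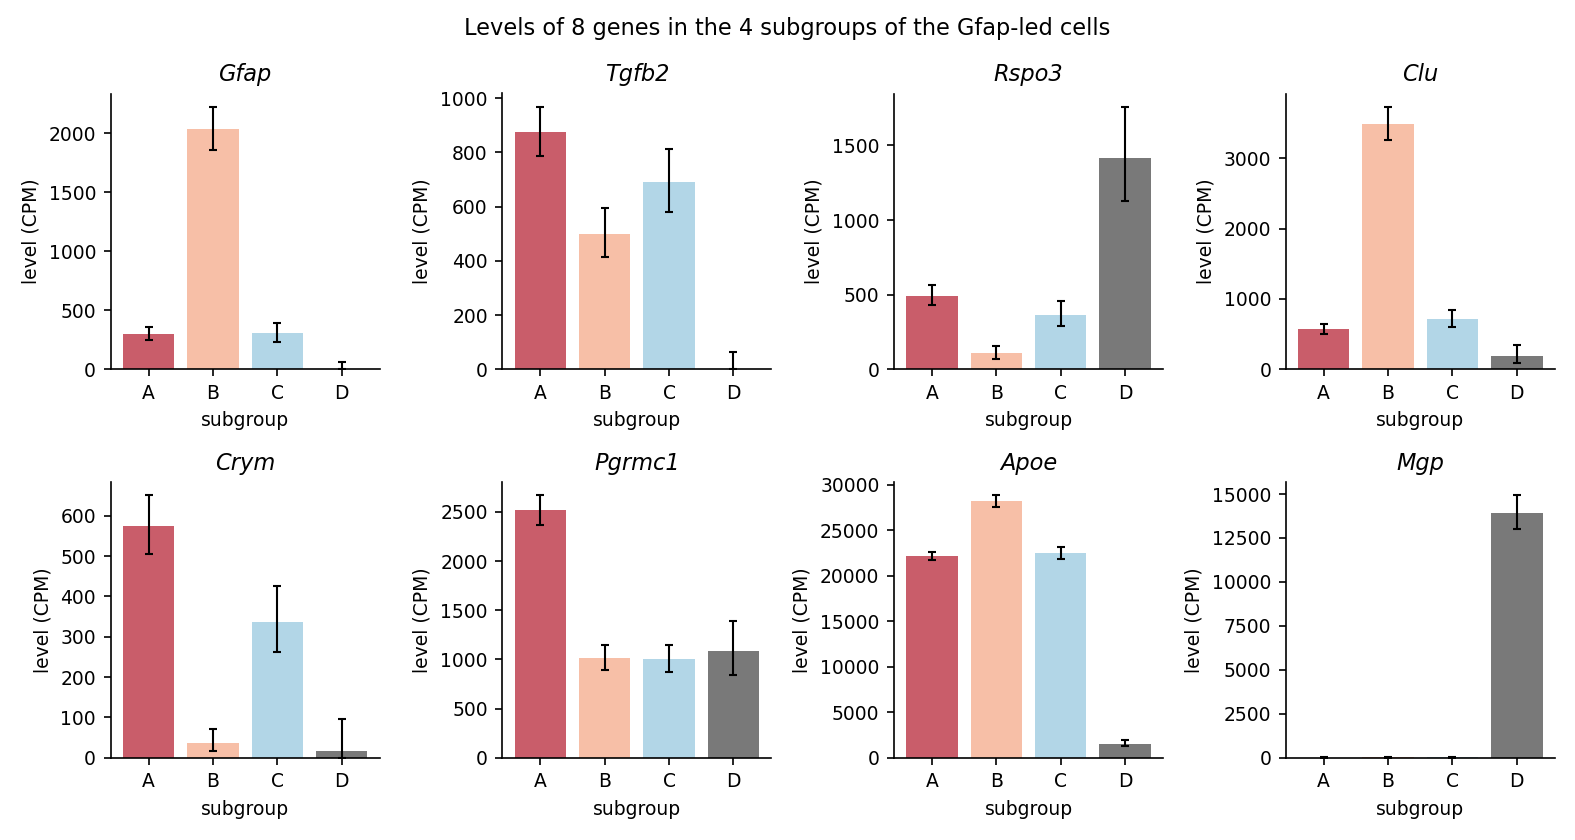
Level in CPM (vertical axes, starting at 0) of 8 genes in the subgroups A (98 cells), B (56), C (45) and D (11) of the Gfap-led cells; bars are pooled levels and black lines exact 95% Poisson intervals. Gfap and Clu were highest in B, at 2035 and 3489 CPM, and subgroup D held Mgp at 13940 CPM without Gfap or Tgfb2.

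Of 8 intermediate filament genes, 1 was higher in members than in other tanycyte-like cells, namely Gfap, a gene of the rule, and none lower. Vim, the filament of tanycytes and ependymocytes, stood at 562 CPM in members, 564 in other tanycyte-like, 587 in ependymocyte-like, 395 in beta-2-like and 22.1 in astrocyte-like cells. Nes, which encodes nestin, stood at 42.0 CPM, between 16.0 CPM in beta-2-like and 54.7 CPM in ependymocyte-like cells. Krt18, a keratin of simple epithelia, had 2.15 CPM in members and 93.2 CPM in ependymocyte-like cells.

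Genes known from wall tanycytes differed among themselves. Of 12 on the list, 10 could be compared with other tanycyte-like cells, of which 2 were higher, Cd59a among them, and Crym and Vcan were lower; Crym no longer counted as lower without subgroup D. Frzb stood at 202 CPM in members against 424 and 319 CPM in beta-2-like and other tanycyte-like cells, and Fgf10, a growth factor of tanycytes, at 57.0 CPM against 64.1 and 47.6 CPM. Among 11 homeobox factors, 5 of which could be compared with other tanycyte-like cells, Rax was lower and none higher.

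Of 18 genes of radial glia and neural stem cells, 11 could be compared with other tanycyte-like cells and 0 were higher or lower, with a median log2 ratio of -0.17. Sox2 stood at 249 CPM in members against 157 to 309 CPM in the 4 groups and Hes1, a Notch target, at 348 CPM against 108 to 733 CPM. Of the 7 cell cycle genes none reached 50 UMIs in any comparison, and they summed to 3 UMIs over the 210 members, so cycling members were not detectable at this depth. Of 12 reactive glia genes, 6 could be compared with other tanycyte-like cells and Cryab, a small heat shock protein, and Socs3 were higher; Socs3 did not count as higher without subgroup D, which held it at 329 CPM. Cryab stood at 307 CPM against 73.0 to 190 CPM, while Serpina3n, a marker of reactive astrocytes, stood at 20.5 CPM against 4.07 to 18.0 CPM and was not counted as higher than any group.

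Among the signalling lists, the TGF-beta and BMP list was marked by the ligand that the rule uses. Of 23 genes, 10 could be compared with other tanycyte-like cells, and Tgfb2, Id1 and Id3 were higher. Id1 and Id3, inhibitors of differentiation that respond to BMP, stood at 1332 and 1695 CPM in subgroup D and at 9.65 to 212 CPM in A to C, and without subgroup D only Tgfb2 was higher. Of 30 Wnt genes, 18 could be compared, and Wnt7b, Fzd9 and the rule gene Rspo3 were higher. Tcf7l2 and Fzd5 were lower, joined by Sfrp1 when subgroup D was left out. The Wnt receptor Fzd9 stood at 82.9 CPM in members, 69.1 in astrocyte-like cells and 4.05 to 16.3 CPM in the other groups. Tcf7l2, a nuclear effector of Wnt, stood at 59.2 CPM against 80.0 to 191 CPM. Dkk3, a Dickkopf relative, stood at 236 CPM against 33.0 to 116 CPM. In the FGF list 0 of 10 compared genes differed from other tanycyte-like cells, and in the Notch list 1 of 12, the ligand Jag1, at 38.8 CPM against 8.62 CPM.

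Of 17 genes for potassium, water and gap junctions, 15 could be compared with other tanycyte-like cells, and 4 were higher (Gja1, Gjb6, Gjb2 and Slc4a4) and 0 lower; without subgroup D, which held Gjb2 at 259 CPM, Mlc1 took its place. Gja1 and Gjb6 encode connexins of the astrocyte network. Gja1 stood at 1225 CPM in members, 583 in other tanycyte-like and 1701 in astrocyte-like cells, and Gjb6 at 174, 43.6 and 1580 CPM. Aqp4, the water channel of astrocyte endfeet, stood at 118 CPM against 467 CPM in astrocyte-like and 445 CPM in ependymocyte-like cells.

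In glutamate handling, 1 gene of 9 compared was higher than in other tanycyte-like cells. It was Slc1a2, the main glutamate transporter of astrocytes, which stood at 562 CPM (515 to 612) in members, at 221 CPM in other tanycyte-like, 85.1 in ependymocyte-like, 63.2 in beta-2-like and 1561 CPM in astrocyte-like cells. By barcode number it stood at 652, 647, 411 and 514 CPM in members. Of 13 genes of this list, 12 were lower in members than in astrocyte-like cells, with a median log2 ratio of -2.50. Slc7a10, an amino acid transporter of astrocytes, stood at 30.1 CPM against 1406 CPM, and Hes5 at 21.5 CPM against 1096 CPM. Summed over the 9 astrocyte markers that the rule did not use, the members stood at 1429 CPM (1354 to 1508), above beta-2-like (394 CPM) and other tanycyte-like cells (686 CPM) and far below astrocyte-like cells (13640 CPM). These markers belong to the list that named the astrocyte-like clusters, so the high level of that group follows from the naming.

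The matrix gene Sparc stood at 2288 CPM in members, 999 in other tanycyte-like, 2218 in ependymocyte-like and 4174 in astrocyte-like cells, and Sparcl1 at 1358, 404, 1098 and 6247 CPM, so for both genes members lay near ependymocyte-like cells (log2 ratios of 0.05 and 0.30). Of 24 matrix genes, 17 could be compared with other tanycyte-like cells, and 3 were higher (Sparc, Sparcl1 and Timp4) and 2 lower (Vcan and Col25a1, the second limited by the rule).

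Of 13 junction genes, 7 could be compared with other tanycyte-like cells and 1, Cldn10, was lower. Cldn10 encodes a claudin and stood at 59.2 CPM in members against 1042 CPM in beta-2-like, 286 in other tanycyte-like, 1577 in astrocyte-like and 28.4 in ependymocyte-like cells. Its values in members by number were 50.1, 132, 26.7 and 40.4 CPM.

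For glucose and lactate, 10 of 17 genes could be compared with other tanycyte-like cells, and Pfkfb3 and Pygm were higher. Ldha, which makes lactate, stood at 422 CPM in members against 101 to 339 CPM, and Slc2a1, a glucose transporter, at 113 CPM against 581 CPM in ependymocyte-like cells. For lipid handling, 1 of 13 compared genes was lower than in other tanycyte-like cells, Plin2, a coat protein of lipid droplets, at 26.9 CPM against 90.01 CPM. In the thyroid hormone and retinoid list 1 of 7 compared genes, Crym, was lower than in other tanycyte-like cells, and none without subgroup D.

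Of 20 hormone and cytokine receptors, 12 could be compared with other tanycyte-like cells and Ednrb, an endothelin receptor, was higher, at 64.6 CPM against 21.3 CPM, with 166 CPM in subgroup B. Of 15 complement and surface immune genes, 10 could be compared and 3 were higher and 0 lower, namely Cd59a, Cd24a and C4b. C4b, a complement component, stood at 64.6 CPM in members and 20.1 CPM in other tanycyte-like cells. Of 20 axon guidance genes, 12 could be compared, with Nrp1 higher, at 329 CPM in subgroup D and 0 to 18.9 CPM in A to C and not counted without it, and Efnb2 and Ephb1 lower. Of 9 IGF genes, 6 could be compared and Igfbp7, a binding protein, was higher, at 49.5 CPM against 13.9 CPM. Of 4 APOBEC genes, 2 could be compared and the rule gene Apobec2 was higher.

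Immediate early genes summed to 442 CPM in members without subgroup D, between 316 CPM in other tanycyte-like and 1153 CPM in beta-2-like cells. The 8 heat shock genes summed to 3888 CPM in members against 3718 and 3810 CPM in the 2 tanycyte groups, 6137 CPM in ependymocyte-like and 1928 CPM in astrocyte-like cells, and 0 of 7 compared genes differed from either tanycyte group.

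RNA of other cells was also measured. The 4 haemoglobin genes summed to 21.5 CPM in members and 18.2 to 22.0 CPM in the 4 groups. The 9 free oligodendrocyte transcripts summed to 1379 CPM against 938 to 1698 CPM, the 9 neuropeptides to 238 CPM against 240 to 580 CPM, the 6 microglia markers to 137 CPM against 118 to 149 CPM and the 6 neuron markers to 251 CPM against 130 to 225 CPM. Endothelial markers summed to 211 CPM in all members and 142 CPM without subgroup D, against 46.0 to 124 CPM. The part of these RNAs in the differences above was not tested.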

How the data were processed

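The deposited matrix holds UMI counts per gene and cell that the authors made with Cell Ranger 2.0 on mm10 from 10x 3′ libraries; no column was left unused (0 columns). The 5982 cells and 27998 genes were used as deposited. Depth was 29288898 UMIs in all. Cells were clustered with scanpy 1.11.5 and leidenalg 0.10.2 on 2000 variable genes, 30 components and 15 neighbours at resolution 1 (0.5 within members). Clusters took a name when marker lists scored at least 0.3 and 1.5 times the next list. At least 3 markers of the list also had to reach 4 times the median of all clusters, with 10 CPM added to both. Scrublet, run per barcode number, marked 50 cells (0.836%), which were kept. Intervals (exact Poisson for CPM, Clopper-Pearson for shares) cover counting error only. Without a map from cells to libraries all cells are 1 sample, so no test was made, including the study's fasted and refed test. Named were the markers, 2 to 4 genes a list, and, of genes with at least 100 UMIs in members, the 15 with the highest smallest ratio over the 4 groups and the 10 with the lowest largest ratio; subgroup genes and any others were named after their values were seen. Members and lists were chosen with earlier results of these data known. The contrast code was run on counts simulated from the members' profile, with 2 groups of equal size and depth and genes changed 4-fold. Such data check the code only, and not smaller changes or groups of unlike size and depth. Leaving out subgroup D, and the comparison group without the members' cluster, were added after seeing the data. A few genes are not reported here.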

Additional observations from a re-analysis of the deposited data

How the results depend on the processing

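Of 149 values under alternatives over 12 results, 117 stayed within their limit and 32 moved. The members numbered 138 with at least 6 UMIs, 130 when cells were thinned to 2000 UMIs first and 320 as the whole cluster. With 50 CPM added in place of 10, genes higher and lower were 131 and 72 against beta-2-like, 33 and 15 against other tanycyte-like, 130 and 317 against ependymocyte-like and 407 and 298 against astrocyte-like cells. With a minimum of 200 UMIs they were 99 and 76, 58 and 36, and 119 and 207 in the first 3 comparisons, and 476 were higher than in astrocyte-like cells. With 1 CPM added, 215 were higher and 215 lower than in other tanycyte-like cells. On thinned counts, 150 were higher than in beta-2-like cells, and 198 higher and 339 lower than in ependymocyte-like cells. These changes follow the filter or the pseudocount by construction, and the part of depth was not tested. The minimum of 200 UMIs and the thinning also lower the number of genes compared. No share of the genes compared is given for these settings, nor for the counts without subgroup D or without the members' cluster. The tanycyte markers (1749 CPM) stood at 1855 CPM in members inside the main cluster and 1858 CPM without subgroup D. All 7 ependymocyte markers (3262 CPM) stood at 3389 CPM thinned, 3740 CPM inside the cluster and 3468 CPM without subgroup D, and all 10 astrocyte markers (1610 CPM) at 1722 CPM thinned and 1702 CPM inside the cluster. Leaving out 1 barcode number at a time gave 3120 to 3378 CPM and 1516 to 1676 CPM for these 2 lists. No paired analysis was possible because the cells carry no link to a library or condition and no test was made.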
